A study of Mus musculus with 6 samples.

Results

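The genes Sox11, Sox3, Dbn1, Dpysl2 and Mdk, known from the neural lineage, were followed through 13 RNA G-quadruplex sites, out of 5538 sites in 2643 gene entries that the deposited tables list. The members are all sites whose gene entry holds 1 of these 5 symbols: 5 sites in Sox11, 1 in Sox3, 2 in Dbn1, 3 in Dpysl2 and 2 in Mdk. The genes were chosen by their measured reads in an earlier look at the same tables, where they rose by day 7. Reads and stops by day at these sites are therefore given as a description, with no test. What the choice did not use, the effect of K+ against Li+ within a day and the difference between the in vitro tables and day 7 cells, was tested.

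Stops of reverse transcription were counted at day 0, day 3 and day 7 of the embryoid body differentiation of a mouse embryonic stem cell line, in 2 samples a day, each with 1 K+ and 1 Li+ library. All samples came from 1 clonal TsixTST/+ line of the cross 129S1/CastEiJ x 129S1, which the labels give as genotype WT. The line was kept on inactivated feeder cells with leukemia inhibitory factor, and was differentiated without feeders and without this factor, in suspension at first and on gelatin once day 3 was reached. Cells of all 3 days were treated alive with dimethyl sulfate (DMS), and the RNA was the polyadenylated RNA bound to chromatin. Each day 7 sample also has a table named in vitro, whose preparation the labels do not describe. The labels do not say whether the 2 samples of a day were separate cultures, so the p-values from limma speak for these samples alone. For reads they rest on the spread between samples, and for stops on counting error and that spread together. Fisher's exact test was run within a replicate and measures counting error only.

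An RNA G-quadruplex is a stack of guanine tetrads held together by K+, which Li+ does not stabilise, and a folded one stops reverse transcriptase at its 3′ side. DMS methylates guanines at a position that pairing inside a folded G-quadruplex shields, and a methylated motif can no longer fold in the test tube. Stops in K+ above those in Li+ therefore mark motifs that were shielded in the cell. Sox3 and Sox11 encode transcription factors of neural development, the first known from dividing progenitors and the second from differentiating neurons. Dbn1 encodes drebrin, which binds actin filaments in growing neurites and dendritic spines. Dpysl2 encodes a collapsin response mediator protein, which binds tubulin and acts in axon growth. Mdk encodes midkine, a secreted heparin-binding growth factor of the developing embryo. Several of these genes, Mdk and Sox11 among them, are also used outside the nervous system.

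The motifs below are the 8 that could be tested in day 7 cells, the most read site of each gene among them. They were read from the deposited tables in the direction of the transcript, on the build GRCm38.p6, all from the minus strand, and capitals mark runs of guanines.
Sox11 3′ UTR, 23 bases, chr12:27341153-27341175: gaGGatGGtGGGGGGaGGGGGag
Sox11 3′ UTR, 21 bases, chr12:27340846-27340866: GGGGaccGGGcGGGGGaGGGG
Sox3 3′ UTR, 17 bases, chrX:60891441-60891457: GGGtGGtGGGGaaGGGG
Dbn1 3′ UTR, 22 bases, chr13:55473865-55473886: GGGacctGGtGGGGGtcGGGGG
Dbn1 3′ UTR, last 30 of 32 bases, chr13:55473855-55473884: gacctGGtGGGGGtcGGGGGttctGGtGGG
Dpysl2 3′ UTR, 25 bases, chr14:66803553-66803577: GGGGGttaaGGGttGGGattttGGG
Mdk 5′ UTR, 23 bases, chr2:91931614-91931636: GGGGGctgaGGtGGGGGtGGGGG
Mdk 5′ UTR, last 30 of 35 bases, chr2:91931716-91931745: cttagcGGGacaGGccGGagcGGGaGGGag

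The tables class the Sox11 21-base, Dbn1 32-base and Dpysl2 25-base motifs as canonical, with 4 or more guanine runs joined by short loops. The Sox3 motif is classed as two-quartet, and the Sox11 23-base, Dbn1 22-base and both Mdk motifs as bulged, where another base interrupts a guanine run. Over all 13 sites, 7 were bulged, 5 canonical and 1 two-quartet, while these classes made up 41.7%, 15.7% and 19.2% of all sites. Every member site lay in an untranslated region, 10 in a 3′ UTR and 3 in a 5′ UTR, where 50.1% and 11.5% of all sites lay. None lay in coding sequence, which held 24.2% of all sites. The 13 motifs were 17 to 35 bases long, with 51.7% to 78.3% guanine.

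The sites within a gene were not independent. The 22 bases of the shorter Dbn1 motif lie wholly inside the longer one, which adds 2 shorter guanine runs at the 3′ end. In Sox11 the 21-base motif lies inside a bulged motif of 27 bases (chr12:27340840-27340866), and a bulged motif of 29 bases (chr12:27340852-27340880) shares 15 bases with each of them. The Sox11 5′ UTR motif (canonical, 26 bases, chr12:27342521-27342546) and the other Dpysl2 motifs, both in the 3′ UTR (canonical, 28 bases, chr14:66804904-66804931, and bulged, 27 bases, chr14:66805305-66805331), stand apart.

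The in-cell samples held 1127399 to 6770280 listed reads of both cations, of which 65% to 83.5% fell on 9 ribosomal and mitochondrial sites. The day 7 samples were the deepest of their replicate number. The lowest coverage above 0 in any table is 6, which makes a listed 0 a count of 5 reads of a cation at most. Libraries stood apart in the measure that K+ and Li+ are meant to differ in. Where both cations had 20 or more reads, the K+ stop share exceeded the Li+ share at 41.4% and 29.1% of sites in the day 0 samples, 73.2% and 58.8% in the day 3 samples and 66% and 41.8% in the day 7 samples. In both in vitro tables it did so at 100%. In day 7 replicate 2 and in both day 0 samples, K+ was thus below Li+ more often than above it, and K+ results are given for each replicate.

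Reads at the sites of all 5 genes were highest on day 7. Reads of both cations at the most read site of each gene were summed and scaled by trimmed mean of M values to reads per 1000000 (RPM). In bulk RNA, fewer cells of a type and less RNA per cell cannot be told apart. Of the 13 sites, 4 and 3 were listed with reads in the day 0 samples, 3 and 4 in the day 3 samples and all 13 in both day 7 samples, while the share over all 5538 sites ran from 56.3% to 99.6%.

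Of the transcription factors, Sox11 was listed at 0 in both day 0 samples and both day 3 samples and reached 113.3 and 71.99 RPM on day 7. The day 7 mean was at least 6.91-fold the day 0 level and at least 6.04-fold the day 3 level, with every listed 0 set to 5 reads. Among the other Sox11 sites, 1 gave 6 K+ reads in day 3 replicate 2, and all other reads before day 7 were listed at 0.

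Sox3 had 18.18 and 0 RPM in the day 0 samples, 22.84 and 81.18 RPM in the day 3 samples, and 85.63 and 138.8 RPM in the day 7 samples. Both day 7 samples stood above the day 3 samples, but by little, since 85.63 on day 7 lies next to 81.18 on day 3. The day 7 mean was 2.05-fold the day 3 mean and 5.41-fold the day 0 mean, with each listed 0 at 5 reads. Unlike Sox11, Sox3 had reads in at least 1 sample of every day.

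Of the cytoskeletal genes, Dbn1 was listed at 0 in all 4 earlier samples at both sites, and reached 212.5 and 237.3 RPM on day 7. That is at least 16.8-fold the day 0 level and at least 14.7-fold the day 3 level. Its day 7 samples were the closest pair of the 5 genes in relative terms, with a mean of 224.9 ± 17.5 (SD, n = 2).

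Dpysl2 had 13.29 and 11.9 RPM on day 0, was listed at 0 in both day 3 samples, and had 154.8 and 85.21 on day 7. The day 0 level rests on 19 K+ reads in replicate 1 and 6 Li+ reads in replicate 2, the lowest coverage the tables list. The day 7 mean was 6.22-fold the day 0 level with the missing cations at 5 reads, and at least 7.82-fold the day 3 level. The other Dpysl2 sites had no listed reads before day 7.

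The growth factor gene Mdk was the most read member on every day, with 195.8 and 95.22 RPM in the day 0 samples, 124 and 209.9 RPM in the day 3 samples, and 443.3 and 306.3 RPM in the day 7 samples. Its day 0 and day 3 samples overlap, and both day 7 samples lie above all 4 of them. The day 7 mean of 374.8 ± 96.9 (SD, n = 2) was 2.58-fold that of day 0 (145.5 ± 71.1, n = 2) and 2.25-fold that of day 3 (166.9 ± 60.7, n = 2). Mdk thus had the smallest difference between day 7 and day 0 of the 5 genes, as far as the lower bounds of the others allow that comparison.

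**Figure D1:**
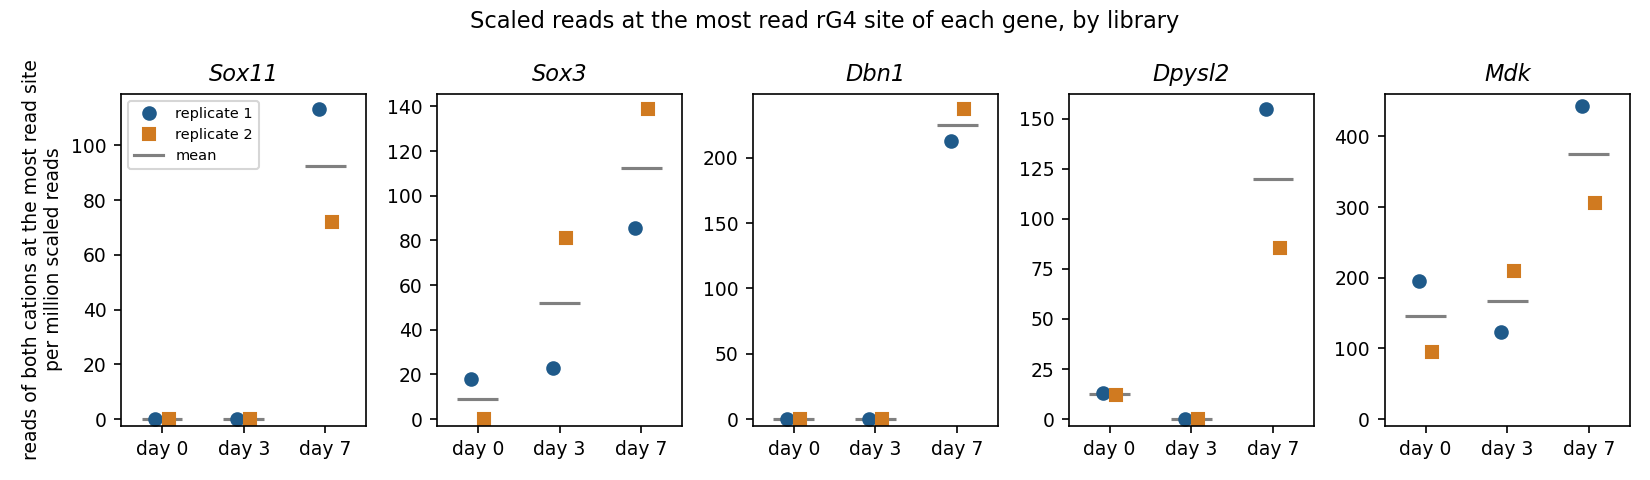
Scaled reads of both cations at the most read site of each gene (vertical axis, RPM, a separate linear scale for each gene) on day 0, day 3 and day 7. Circles are replicate 1, squares replicate 2 and bars the mean of 2 samples. Sox11 and Dbn1 were listed at 0 in all 4 samples before day 7, and Mdk was read in all 6.

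In 5 of 5 genes both day 7 samples lay above both day 3 samples and both day 0 samples. Only in Sox3, 1 of 5, did both day 3 samples lie above both day 0 samples. Over all 2389 genes tested, both samples of day 7 lay above both of day 0 in 41.2%, both of day 7 above both of day 3 in 41.2%, and both of day 3 above both of day 0 in 15.4%. Because the genes were picked for this pattern, nothing is read from their counts. All 5 passed the filter on low reads, 3 of them only through the day 7 samples. The correlation of a gene's centred log2 profile with the mean of the other 4, over 6 samples, was 0.977 for Sox11, 0.972 for Dbn1, 0.888 for Mdk, 0.723 for Dpysl2 and 0.518 for Sox3. These profiles took a listed 0 as 0 and added 1 RPM, though a listed 0 allows 5 reads of a cation. Sox3 had such a 0 on day 0 and Dpysl2 on day 3, so no difference between the genes is read from these values. Among the other genes tested, the profiles most like the mean of the 5 were those of Tpm1 (Pearson r = 0.996 over 6 samples), Agpat4 (r = 0.995), Cmtm3 (r = 0.988), Thbs1 (r = 0.988) and Pkdcc (r = 0.988). These samples share libraries and scaling, and Cmtm3, Thbs1 and Pkdcc were listed at 0 in all 4 samples before day 7.

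The name neural lineage rests on what the 5 genes are known for, and the tables hold few defining markers to set it against. Of 6 listed markers of neural progenitors, Sox1, Pax6, Fabp7 and Dcx have no site in the table. Nes, the intermediate filament gene of neural progenitors, had 0 and 27.77 RPM in the day 0 samples, 0 in both day 3 samples and 75 and 72.72 RPM in the day 7 samples. It was called higher against day 3, at least 4.82-fold with listed zeros at 5 reads (adjusted p = 0.00728, limma-voom). It did not pass against day 0 (log2 change 3.27 ± 1.30 SE, adjusted p = 0.103). Nes passed the filter only through the day 7 samples, so nothing is read from its calls. The day 0 level rests on 14 reads in replicate 2. Against day 0, Nes passed in 5 of 23 alternatives, among them K+ reads alone (6.06, adjusted p = 0.00134, limma-voom) and listed zeros at 5 reads (2.44, adjusted p = 0.0064). In the other 18 it did not pass, among them Li+ reads alone (2.77, adjusted p = 0.208) and the replicate block (5.21, adjusted p = 0.0613). Without day 0 replicate 2, which holds those 14 reads, the log2 change was 7.73, and without day 0 replicate 1 it was 1.37. Tubb3, the neuronal tubulin gene, had 37.23 and 17.63 RPM on day 7, against 81.11 and 194.4 on day 0 (adjusted p = 0.0543), at a site that also lies in Galnt2l. With listed zeros at 5 reads Tubb3 was called lower on day 7 than on day 0. The few markers in the table do not settle whether the day 7 cells were neural.

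Markers of other cell types moved on the same day. Of 5 epithelial markers 4 were called higher against day 0, where 15.2% of all genes were, and Epcam was not (adjusted p = 0.974, limma-voom). The keratin genes Krt8, Krt18 and Krt19 were listed at 0 in every sample before day 7 and passed the filter only through the day 7 samples. Nothing is therefore read from this count. With listed zeros at 5 reads, Krt8 and Krt18 had at least 22-fold and 27.2-fold the day 0 level. The summed level of the 5 epithelial markers was 999.2 and 940.2 RPM on day 7, against 60.83 and 67.45 on day 0. T, a mesoderm marker, and Col1a1, a fibroblast marker, were listed at 0 in every sample before day 7 and passed the filter only through the day 7 samples. Nothing is therefore read from their calls. Their day 7 levels were 1.1-fold and 1.55-fold what 5 reads per cation would give on day 0, and 0.96-fold and 1.35-fold on day 3. Of 3 stem cell markers in the table, Pou5f1 and Esrrb fell against day 0, where 3.14% of all genes fell. Tdgf1 did not pass (log2 change -1.05, adjusted p = 0.0633, limma-voom). The summed level of the 3 was 263.8 and 572.1 RPM on day 7, against 2058 and 2089 on day 0. What part these cell types have in the reads of the 5 genes was not tested.

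Other genes of the same processes were taken from a list of 97, of which 27 have a site in the table and 26 could be tested for reads by day with limma-voom. The filter asked for about 10 reads in 2 samples, and 11 of the 26 passed it only through the day 7 samples. Against day 0, 11 of 26 rose by day 7 and 1 fell, and over all genes 15.2% rose and 3.14% fell. Against day 3, 10 of 26 rose by day 7 and 1 fell, where 10.8% of all genes rose and 1.88% fell. Between day 3 and day 0 none of the 26 passed, with 0.0837% of all genes higher and 0% lower on day 3, and 138 and 67 genes at an unadjusted p under 0.05. The median log2 change, day 7 minus day 0, was 4 for the list and 0.573 for all genes tested. With days listed at 0 set to 5 reads per cation these medians were 0.823 and 0.347.

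Most of these calls rest on listed zeros. Of the 11 genes that rose against day 0, 9 were listed at 0 in both day 0 samples, and the same 9 passed the filter only through the day 7 samples, as did 225 of the 364 genes that rose over the whole table. A gene let in that way had to differ, so nothing about the list is read from its count. The 9 are Sox4, Tcf4, Crmp1, Dpysl5, Gsk3b, Map1b, Nnat, Efnb1 and Efnb2. Their adjusted p-values are given below, and nothing is read from them. For 6 of the 9 the day 7 level exceeded what 5 reads per cation would give on day 0. When every listed 0 was set to 5 reads, an alternative added after the data were seen, 6 of 26 rose and 3 fell (8.08% and 5.4% of all genes). Only 4 of the 11 were among these 6, namely Nnat, Sox4, Efnb2 and Basp1, and the other 2 were Nes and Marcks. The 3 that fell were Tubb3, Nrp2 and Sox2. When 1 day 7 sample was left out and the filter applied anew, 19 of the 26 and 4 of the 11 could still be tested, and 0 passed. Over the genes tested on all 6 samples, an alternative also added later, 7 of 26 rose against day 0 without day 7 replicate 1 and 9 without day 7 replicate 2, where the lone day 7 sample is assumed to vary like the other days.

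In the group of Sox and other transcription factors, 3 of 6 tested genes were called higher against day 0 and 1 lower. Of the 3, Sox4 and Tcf4 passed the filter only through the day 7 samples. Sox4, the close relative of Sox11, had none listed on day 0, 48.95 and 0 RPM on day 3, and 109.6 and 66.84 RPM on day 7. It was called higher against day 0, at least 6.58-fold (adjusted p = 0.00357), and did not pass against day 3 (adjusted p = 0.122). Pou3f1, a POU factor of early neural cells, and Tcf4, an E-protein partner of proneural factors, were also called higher against day 0. With listed zeros at 5 reads neither of them passed (adjusted p = 0.217 for Tcf4). Sox2, the partner of Sox3 in the SoxB1 group, went the other way from Sox3: it had 506.9 and 341.2 RPM in the day 0 samples, 711.4 and 728.6 RPM in the day 3 samples and 159.6 and 232.9 RPM in the day 7 samples. On the log2 scale it fell by 1.14 against day 0 (adjusted p = 0.0451) and fell by 1.92 against day 3 (adjusted p = 0.00717). All sites of Sox2 lie in Sox2ot as well, and the call against day 0 was lost in 18 of 23 alternatives, among them the replicate block (adjusted p = 0.0857). It was lost without any 1 of the 6 samples when the filter was applied anew (adjusted p from 0.0584 to 0.32). Sox13 had 22.87 and 22.77 RPM on day 7 and 29.37 and 0 on day 0, with no call (adjusted p = 0.197).

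Among the relatives of the cytoskeletal members the levels were low. Crmp1 and Dpysl5, which belong to the family of Dpysl2, were listed at 0 on day 0 and day 3 and had 7.978 and 16.16, and 14.09 and 10.28, RPM on day 7. Both were called (adjusted p = 0.0187 and 0.00847 against day 0), but 5 reads per cation on day 0 would lie above these day 7 means, so no fold can be given. The same holds for Gsk3b, the kinase that acts on collapsin response proteins. Dbnl, the drebrin-like gene, had 40.42 and 32.32 RPM on day 7 and 36.36 and 59.51 on day 0 (log2 change -0.03 ± 0.43 SE, adjusted p = 0.963). Map1b, a microtubule-binding protein of growing axons, had 26.59 and 27.18 RPM on day 7 and none listed before, at least 2-fold the day 0 level (adjusted p = 0.00271), a call lost with reads summed over all its sites (adjusted p = 0.192) and with listed zeros at 5 reads (adjusted p = 0.145).

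Of the receptors of midkine, Gpc2, a neuronal glypican, had 21.68 and 0 RPM on day 0, none listed on day 3, and 30.85 and 38.2 RPM on day 7. Its site also lies in Gm43720. Gpc2 was called against day 3 (adjusted p = 0.00615) and not against day 0 (adjusted p = 0.0625). It passed the filter only through the day 7 samples, so nothing is read from its calls. The call against day 3 was lost with listed zeros at 5 reads. The syndecan genes Sdc1 and Sdc4 were not called. In the group of adhesion and neuronal genes, Nnat had the largest fitted change of the list against day 0, with 161.7 and 138.8 RPM on day 7 and none listed on day 0, at least 11.2-fold (adjusted p = 0.00271). The ephrin genes Efnb1 and Efnb2 were called higher too, with at least 1.76-fold and at least 3.62-fold (adjusted p = 0.00319 and 0.00174). With listed zeros at 5 reads the call was lost for Efnb1 (log2 change 0.97, adjusted p = 0.233) and stood for Efnb2.

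**Figure D2:**
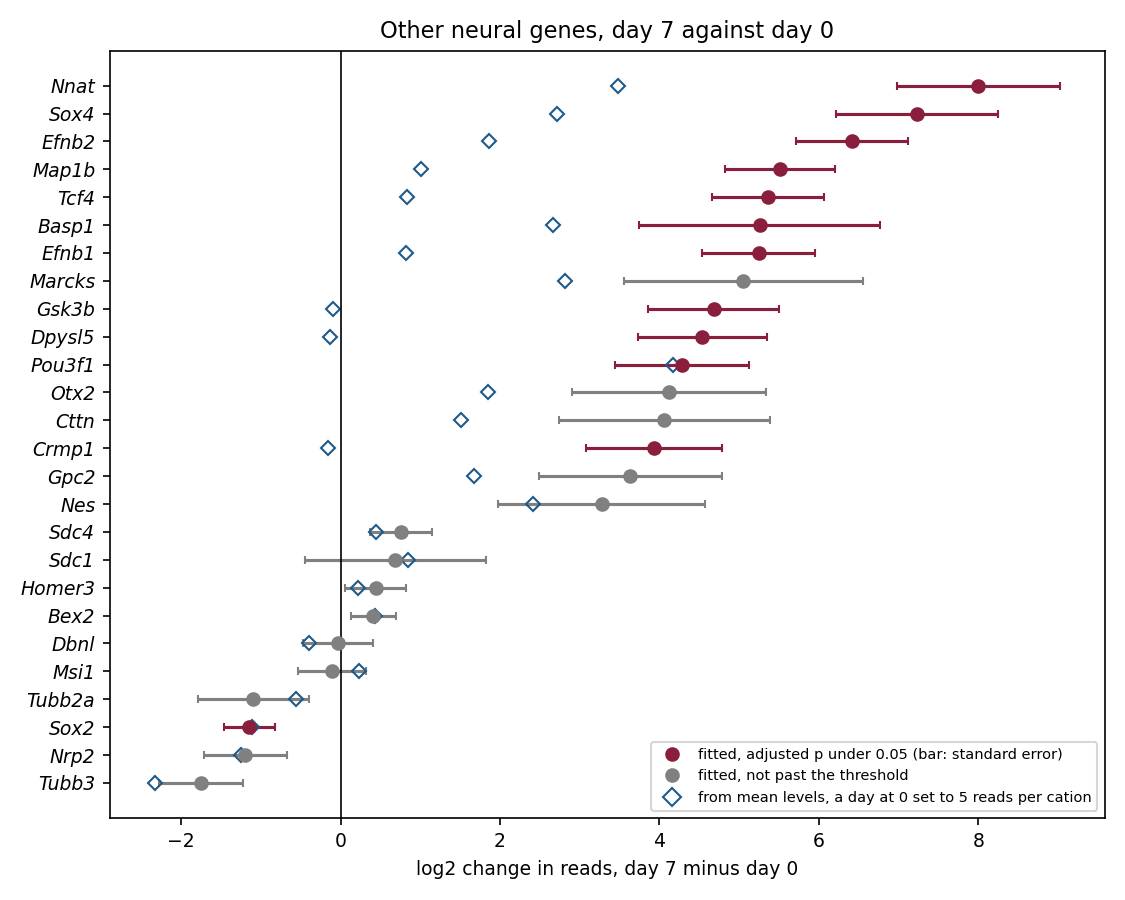
Log2 change in reads, day 7 minus day 0, for the 26 tested genes of the list. Filled circles are limma-voom estimates with standard errors, dark red where the adjusted p is under 0.05. Open diamonds are the change of the mean level with a day listed at 0 throughout set to 5 reads per cation, and for genes absent on day 0 they lie well left of the fitted value.

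The stop shares of the 5 genes in K+ were far higher in vitro than in day 7 cells. Summed over the most read site of each gene, 69.2% of 2359 and 68.7% of 2964 K+ reads stopped in the in vitro tables, against 7.38% of 1261 and 5.74% of 627 in the day 7 samples. In Li+ the shares were 8.65% of 913 and 8.91% of 505 reads in vitro, against 5.4% of 2535 and 6.2% of 516 on day 7. The exact 95% binomial intervals of the day 7 K+ shares, 5.99% to 8.96% and 4.05% to 7.86%, overlap those of Li+, 4.56% to 6.36% and 4.28% to 8.64%. These intervals cover counting error only, and reads are not known to be independent molecules. All sites of the table had a higher K+ than Li+ share in both in vitro tables, so they were listed for that difference and it is not tested here.

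At the Sox11 23-base motif, 35.8% of 444 and 33.9% of 697 K+ reads stopped in vitro, against 18.1% of 116 and 6.25% of 48 on day 7. The Li+ shares were 12.6% of 207 and 14.6% of 157 in vitro, against 12.6% of 310 and 6% of 50 on day 7. It had the highest K+ share of any member site in day 7 replicate 1, and its in vitro share was low for its class, at percentile 21 of 2138 bulged sites. Reverse transcriptase meets the stop of the 27-base Sox11 motif before that of the 21-base motif inside it. Over both in vitro tables, 24.4% of 352 K+ reads stopped at the first, and the share at the second leaves those reads out. What part this has was not tested. At the 21-base canonical motif the K+ shares were 44.4% of 90 and 32.5% of 154 reads in vitro, against 5.13% of 39 and 3.33% of 30 on day 7. The Li+ shares there were 7.14% of 56 and 6.25% of 32 in vitro, against 6.15% of 65 and 14.3% of 21 on day 7. On day 7 this motif thus had a lower share in K+ than in Li+ in both samples. That rests on 2 and 1 K+ stops and 4 and 3 Li+ stops, with overlapping 95% intervals, so no direction is read from it. The 5′ UTR motif of Sox11 stopped 77.2% of 101 and 83% of 147 K+ reads in vitro, but had only 17 and 6 K+ reads on day 7, with 3 and 0 stops.

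At the Sox3 motif 52.7% of 186 and 52.3% of 155 K+ reads stopped in vitro, against 5.3% of 132 and 4.76% of 105 on day 7. The Li+ shares were 8.96% of 67 and 17.2% of 29 reads in vitro, against 6.32% of 190 and 4.76% of 84 on day 7. K+ and Li+ were nearly level in both day 7 samples. This is the only member motif of the two-quartet class, where its in vitro share stood at percentile 55 of 996 sites.

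The Dbn1 motifs share their guanines, and their stop shares differed in vitro. Reverse transcriptase meets the stop of the 32-base motif first, and a read that stops there does not reach the stop of the 22-base motif. The shares thus depend on each other, and what part this has in their difference was not tested. The 32-base motif stopped 82.1% of 375 and 84% of 481 K+ reads in vitro, and the 22-base motif inside it 24.8% of 133 and 29% of 155, at the end of its own last guanine run. On day 7 the 32-base motif stopped 11.2% of 80 and 8.11% of 37 K+ reads, and the 22-base motif 4.8% of 250 and 4.79% of 188. The Li+ shares on day 7 were 3.52% of 142 and 9.38% of 32 reads at the 32-base motif, and 3.46% of 549 and 1.48% of 135 at the 22-base motif. Replicate 2 thus had K+ below Li+ at the longer motif, while at the shorter one K+ was above Li+ in both.

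The Dpysl2 25-base motif had the highest in vitro share of the members, 87.2% of 436 and 87.6% of 339 K+ reads, at percentile 88.8 of 837 canonical sites. On day 7, 5.98% of 184 and 4.84% of 62 K+ reads stopped there, against 2.76% of 398 and 3.7% of 54 Li+ reads. K+ was above Li+ in both samples, with overlapping intervals. The other Dpysl2 motifs had too few reads on day 7 to compare: 0 of 8 K+ reads stopped at the 28-base motif in replicate 2, and 0 of 8 and 1 of 22 at the 27-base motif.

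At the Mdk 35-base motif 82.9% of 1160 and 85.2% of 1618 K+ reads stopped in vitro, against 7.25% of 579 and 7.14% of 224 on day 7. The Li+ shares were 8.23% of 389 and 5.29% of 189 reads in vitro, against 5.15% of 1088 and 10.9% of 193 on day 7. K+ was above Li+ in day 7 replicate 1 and below it in replicate 2, at the best covered site of the 13. The Mdk 23-base motif stopped 42.6% of 516 and 48.5% of 608 K+ reads in vitro. It showed the same split on day 7, with 8.46% of 272 and 5.36% of 112 K+ reads against 5.36% of 504 and 6.76% of 74 Li+ reads.

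**Figure D3:**
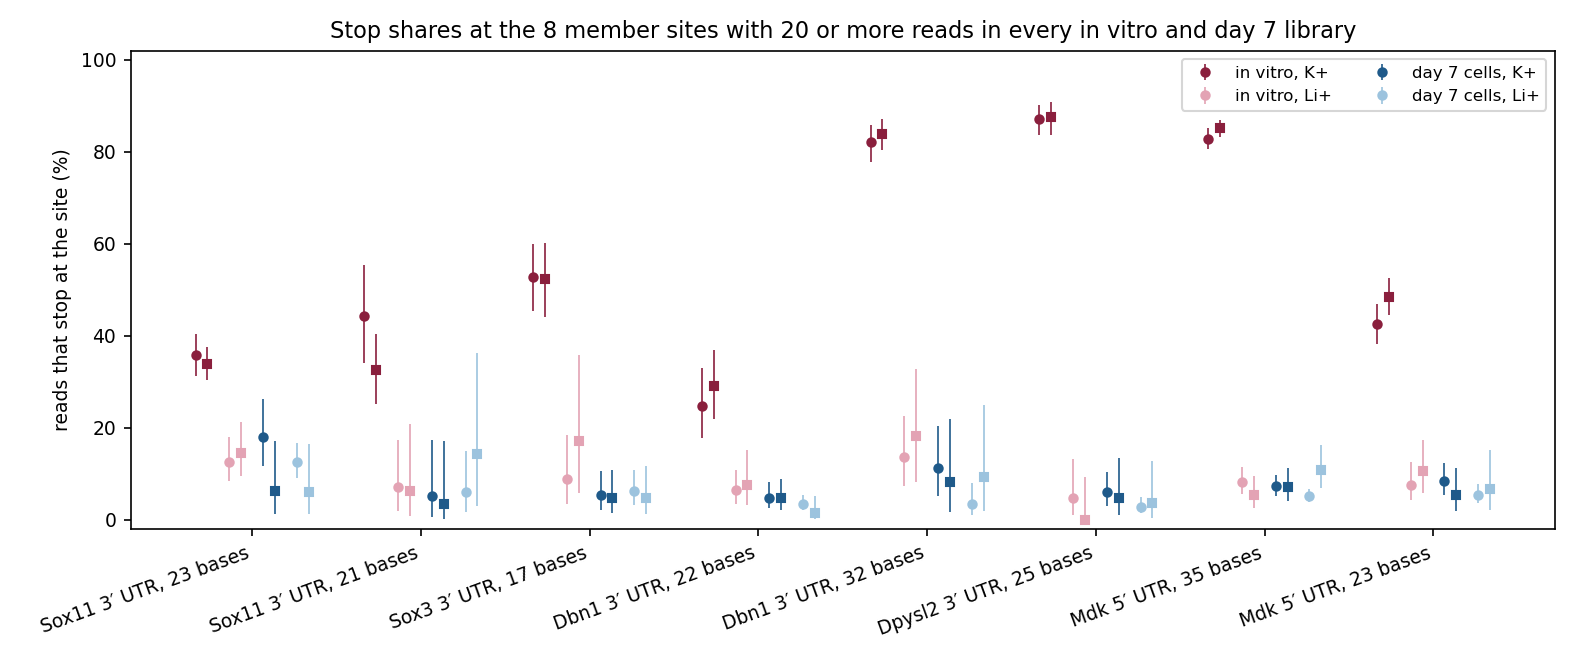
Share of reads that stop (vertical axis, percent) at the 8 member sites that reach 20 reads in each cation of both in vitro tables and both day 7 samples. Circles are replicate 1, squares replicate 2 and bars exact 95% binomial intervals. In vitro K+ shares lie between 24.8% and 87.6%, and the other shares at or below 18.2%.

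No member site passed the tests of K+ against Li+ in cells. On day 7, 8 of the 13 sites had 20 or more reads of both cations in both samples. The log2 odds of a stop, K+ over Li+, was tested against 0 in limma with weights, and none of the 8 was called (0% of 3045 sites over the whole table, with 139 at an unadjusted p under 0.05). By Fisher's exact test in each replicate, 3 sites of the table were higher and 1 lower in K+ in both, none of them a member. The estimate was above 0 at 6 of 8 sites and below 0 at 2, with a median of 0.483 for the members and 0.299 for all sites tested.

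The largest day 7 estimates were at the Dbn1 32-base motif, 1.02 ± 0.72 (log2 ± SE, 95% interval -0.61 to 2.65), and at the Dpysl2 25-base motif, 0.93 ± 0.67 (-0.60 to 2.46). The best measured site, the Mdk 35-base motif, had 0.04 ± 0.38 (-0.82 to 0.90). The Sox3 motif had -0.16 ± 0.63 (-1.59 to 1.28) and the Sox11 21-base motif -0.84 ± 0.96 (-3.02 to 1.34). These intervals include 0 and leave room for differences of either direction, so the sites are not shown to be level between the cations. The sign rested on replicate 1 at 3 of the sites: the Dbn1 32-base motif, the Mdk 23-base motif and the Mdk 35-base motif had log2 odds of 1.73, 0.71 and 0.53 in replicate 1, and of -0.23, -0.37 and -0.66 in replicate 2.

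Before day 7 only Mdk could be followed. On day 0 its 35-base motif stopped 7 of 197 and 2 of 24 K+ reads, against 7 of 83 and 2 of 24 Li+ reads. The K+ over Li+ odds did not pass the limma test against 0 (log2 -0.94 ± 0.74 SE, adjusted p = 0.999). Of 1282 sites tested on day 0, 0% were called, with 20 at an unadjusted p under 0.05 in limma, and none by Fisher's exact test in both replicates. On day 3 no member site had 20 reads of both cations in both samples. Of 965 sites tested there, 0% were called in limma, with 153 at an unadjusted p under 0.05, and 5 were higher and 1 lower by Fisher's exact test in both replicates.

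The K+ over Li+ odds were higher in vitro than in day 7 cells at 7 of the 8 sites tested. Of all 2648 sites tested, 80.9% were called the same way, so the members' count is near the background. The table was listed on in vitro K+ stops, which raises the in vitro side at every site. The median difference was 3.34 on the log2 scale for the 8 member sites and 3.13 for all sites tested.

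The difference was largest at the Dpysl2 25-base motif, 6.24 ± 1.04 (log2 ± SE, adjusted p = 1.7e-06), and at the Mdk 35-base motif, 5.96 ± 0.48 (adjusted p = 8.75e-15), at percentiles 97.8 and 96.8 of all sites. It was 3.80 ± 1.14 at the Sox11 21-base motif (adjusted p = 0.00328), 3.63 ± 0.81 at the Dbn1 32-base motif (adjusted p = 1.62e-04), 3.05 ± 0.79 at the Sox3 motif (adjusted p = 8.51e-04) and 2.60 ± 0.58 at the Mdk 23-base motif (adjusted p = 1.53e-04). The smallest were the Sox11 23-base motif, 1.20 ± 0.53 (adjusted p = 0.0353, percentile 6.99), and the Dbn1 22-base motif, 1.46 ± 0.73, which did not pass (adjusted p = 0.0588, percentile 10.2). Both are bulged motifs with low in vitro shares for their class, at percentiles 21 and 10. The share at the Dbn1 22-base motif leaves out reads that had already stopped at the 32-base motif. Likewise, the share at the Sox11 21-base motif leaves out reads that had stopped at the 27-base motif. The members thus ran from near the bottom to near the top of the table in this measure. The call at the Sox11 23-base motif was lost without any 1 of the 4 tables, with adjusted p from 0.0657 to 0.222, and that at the Sox11 21-base motif without day 7 replicate 2 (adjusted p = 0.0511).

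**Figure D4:**
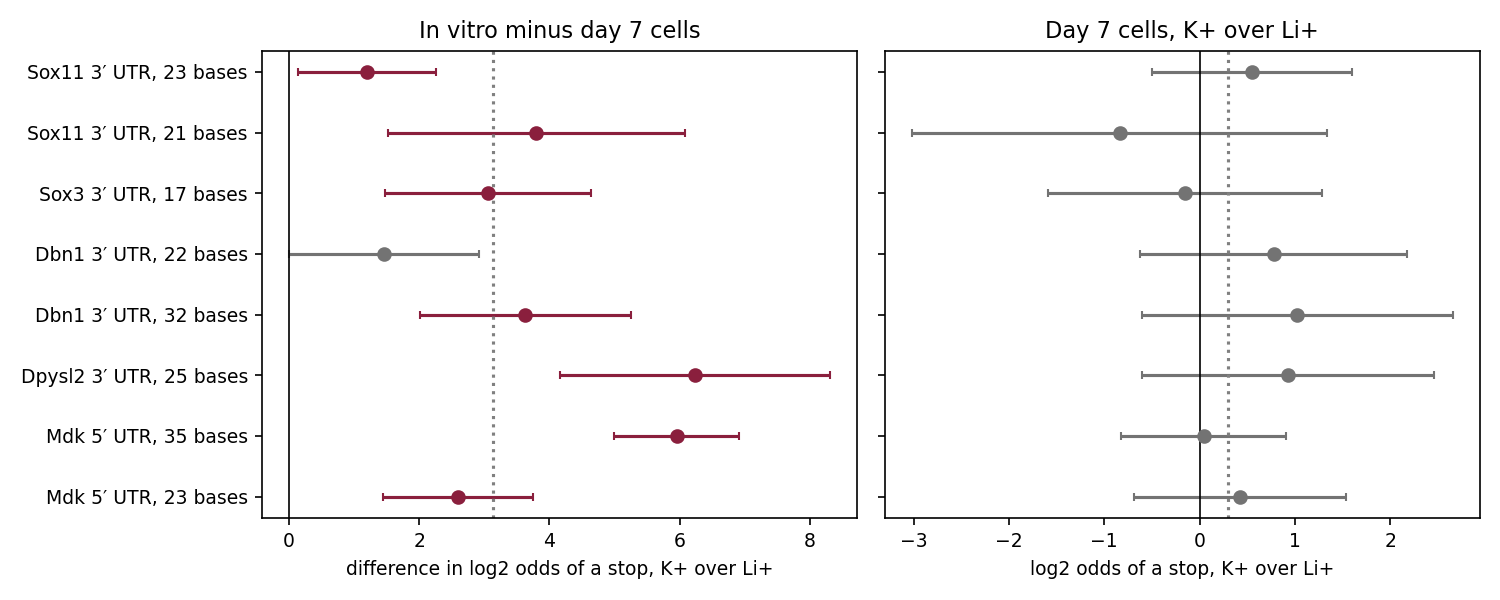
Left, difference in log2 odds of a stop, K+ over Li+, in vitro minus day 7 cells. Right, the log2 odds in day 7 cells alone. Points are estimates with 95% intervals for 8 member sites, dark red where the adjusted p is under 0.05, and dotted lines mark the median over all sites tested, 3.13 and 0.299. At 7 sites the left estimate passed, and all intervals on the right include 0.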

How the data were processed

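The submitters' processing notes name cutadapt, STAR and SAMtools, and GRCm38.p6 or mm10 as build. Not given in the sources used here: tool versions, mapping settings, how multiply mapped reads were handled, and whether strand was used. The authors deposited whole-number read counts per site, per the file headers, as coverage and stops in each cation, with no normalisation. Because a record takes up 2 lines of its file, reads were tested with limma-voom in place of a count model. The in vitro tables are known by their names alone. Deposited motif starts were taken as 0-based, since only then every motif of the defined classes ends in a guanine, and 1 was added. A missing value at 2 sites of day 0 replicate 1 was taken as 0.

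Reads of both cations at the most read site of each gene were scaled by trimmed mean of M values and fitted in limma 3.58.1 (R 4.3.3) on all 6 in-cell samples, 1 mean per day, for genes with 15 reads in all and, in 2 or more samples, the equivalent of 10 reads in a library of median size. The log2 odds ratio of stops (pseudocount 0.5, 20 or more reads of each cation) was fitted in limma with weights from the counting variance and a beta-binomial spread between replicates, with a site's variance not let below the counting floor. That spread was estimated at sites with 200 or more reads. The median difference between the 2 replicates was taken out first, so a shift shared by all sites is not in it. The minimum of 200 reads was chosen after a version over all sites had been run on the real tables. That version then called too much in simulated data. A gene or site was called at a Benjamini-Hochberg adjusted p under 0.05 over all those tested. Intervals of shares are exact Clopper-Pearson intervals (scipy 1.17.1). Members and gene lists were chosen with earlier results of these data known. All members are named, with list genes called in any contrast (up to 10 by adjusted p), relatives of the members and the 5 most similar profiles. Pou3f1, Basp1, Marcks, Nrp2, Krt8, Krt18, T, Col1a1, Sdc1 and Sdc4 were named after their values were seen. Alternatives covered scaling, filters, sums over sites, single cations, coverage minimums, pseudocounts, weights, each replicate left out and the replicate number as a block. Replicate numbers did not pair the samples: the correlation of same-numbered deviations was 0.275 between day 0 and day 3, -0.0368 between day 0 and day 7, and 0.0352 between day 3 and day 7.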

Additional observations from a re-analysis of the deposited data

Results flagged for a closer look

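The effect of K+ against Li+ differed between the in vitro tables and day 7 cells, by a test of the difference itself, at 7 member sites. In vitro minus day 7, the log2 odds of a stop differed by 3.80 at the Sox11 21-base motif, 1.20 at the Sox11 23-base motif, 3.63 at the Dbn1 32-base motif, 6.24 at the Dpysl2 25-base motif, 2.60 at the Mdk 23-base motif, 5.96 at the Mdk 35-base motif and 3.05 at the Sox3 motif. Over all sites tested 80.9% differed this way, so the members' count is near the background. The sites were listed with K+ above Li+ in vitro, which raises the in vitro side at every site.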

How the results depend on the processing

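The counts of the other neural genes depended most on single samples and on listed zeros. Without 1 sample and with the filter applied anew, day 7 against day 0 gave 0 to 13 genes higher and 0 to 1 lower, day 7 against day 3 gave 0 to 10 higher and 0 to 2 lower, and day 3 against day 0 gave 0 to 4 higher and 0 to 2 lower. Against day 0 the count of 0 higher came from leaving out either day 7 sample, where the filter dropped 7 of the 11 genes called against day 0. Nnat and Sox4 could still be tested, with log2 changes of 7.82 and 6.77 without day 7 replicate 1 and 8.03 and 7.47 without day 7 replicate 2, against 8.00 and 7.23 with all samples, and adjusted p from 0.065 to 0.209. With the genes tested on all 6 samples kept, an alternative added later, the ranges were 7 to 15 higher and 0 to 1 lower against day 0, 0 to 11 higher and 0 to 2 lower against day 3, and 0 to 5 higher and 0 to 2 lower between day 3 and day 0. Leaving out day 3 replicate 2 left 0 higher against day 3 either way. Calls between day 3 and day 0 came from leaving out day 0 replicate 1, apart from 1 lower without day 3 replicate 1 when the genes were kept. With listed zeros at 5 reads, 6 were higher and 3 lower on day 7 than on day 0, and 2 higher than on day 3. K+ reads alone gave 1 lower on day 3, and the same with K+ and Li+ swapped in day 0 replicate 2, which also gave 7 higher on day 7 than on day 0. The single fall against day 0, Sox2, was lost without any 1 sample with the filter applied anew (adjusted p from 0.0584 to 0.32), and also (0 lower) with median-ratio size factors, the 2 days alone, K+ or Li+ reads alone, swapped or not, and the replicate block, while no filter gave 2 lower. The replicate block gave 11 higher against day 0 and 10 against day 3. Of the members, both day 3 samples lay above both of day 0 in 0 genes with K+ reads alone, in place of 1.

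For in vitro minus day 7, a coverage minimum of 50 left 3 sites to test and 2 passed, leaving out 1 table gave 5 to 6, the replicate block gave 7, and a spread estimated at all sites, added later, gave 8. The K+ over Li+ odds on day 7 changed sign at the Mdk 35-base motif without weights (-0.0622) and with the replicate block (-0.0223). Without day 7 replicate 1 or 2 they ran from -0.66 to 0.53 there, from -0.23 to 1.73 at the Dbn1 32-base motif and from -0.37 to 0.71 at the Mdk 23-base motif. On day 0 the Mdk 35-base motif had -1.32 and 0 without day 0 replicate 2 or 1. None of these passed the threshold. The causes were not tested. Depth limits most values: 5 of 13 sites had under 20 reads of a cation in a day 7 sample, and a listed 0 allows 5 reads.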
